A study of Mus musculus with 7 samples.

Results

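The killer cell lectin-like receptor (Klr) and C-type lectin (Clec) genes of the mouse were placed against the lamin-associated domains (LADs) of embryonic fibroblasts. The members were all protein-coding genes that RefSeq lists on GRCm38.p6 (the assembly of mm10) and whose symbol starts with Klr, or with Clec and a digit. There were 62 such genes. Of these, 60 had a position on an assembled chromosome, among 21770 protein-coding genes placed there. Klra16 and Klra23 are listed on separate sequences whose positions start anew, and they were not placed. The 60 comprised 27 Klr and 33 Clec genes.

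The fibroblasts, labelled iMEF, were profiled by CUT&RUN. In this assay an antibody directs a nuclease to cut out the chromatin around its target. Its 7 libraries were 2 for Lamin B1, a protein of the lamina under the nuclear envelope, 2 for the control antibody IgG, 1 for each of 2 H3K9me2 antibodies and 1 for H3K14ac. All libraries carry the same line and cell type label, no treatment or age is given, and the design text speaks of several separately derived lines of 1 mouse colony. The strain and any alleles are not given in the sources used here, and wild type appears only in the name of the domain list. The measurement was 1 merged list of 1437 LADs, taken as the Lamin B1 result, which has positions but no signal, so no value below has a replicate error and no test between groups of samples was possible. The list holds no expression values, and the fibroblast label could not be set against marker levels.

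Most proteins of this group carry a C-type lectin-like fold on the cell surface. The Klr receptors of natural killer cells read ligands on other cells and either restrain or trigger killing, and many Clec receptors let myeloid cells recognise sugars of microbes or debris of dead cells. In rodents and other mammals many of these genes lie side by side in the natural killer complex, which on mouse chromosome 6 includes the Klra (Ly49) family, the receptors for class I histocompatibility molecules. Most of these receptors are known from blood cells and not from fibroblasts. LADs are long stretches of chromatin in contact with the lamina, and they generally hold few and mostly silent genes.

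Of the 60 placed members, 47 (78.3%) had their midpoint in a LAD, against 24.6% of all 21125 protein-coding genes between the first and last domain of a chromosome. By family, 22 of 27 Klr genes (81.5%) and 25 of 33 Clec genes (75.8%) were inside. In the natural killer complex, defined as the longest chain of chromosome 6 members with neighbours within 1 Mb, 34 of 38 members (89.5%) were inside. In the second chain, Klrg1 with the Clec4 cluster, all 10 were. Of the remaining 12 members, which lie apart from both, 3 (25%) were inside, a share next to the 24.6% of all genes and the 28.3% of the 1119 genes of chromosome 6. Neighbouring members lie in the same domain and are not independent of each other. With genes placed by start site, whole gene or any overlap the count was 46 (23.7% of all genes), 46 (22.5%) and 47 (26.0%). It was 47 (24.2%) with LADs of at least 100 kb, 43 (21.5%) with those of at least 500 kb and 51 (28.3%) with LADs within 250 kb joined. It was 41 (22.9%) or 49 (26.7%) with each LAD shortened or lengthened by 25 kb at both ends. The plot of shares by group sets these counts side by side.

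**Figure D1:**
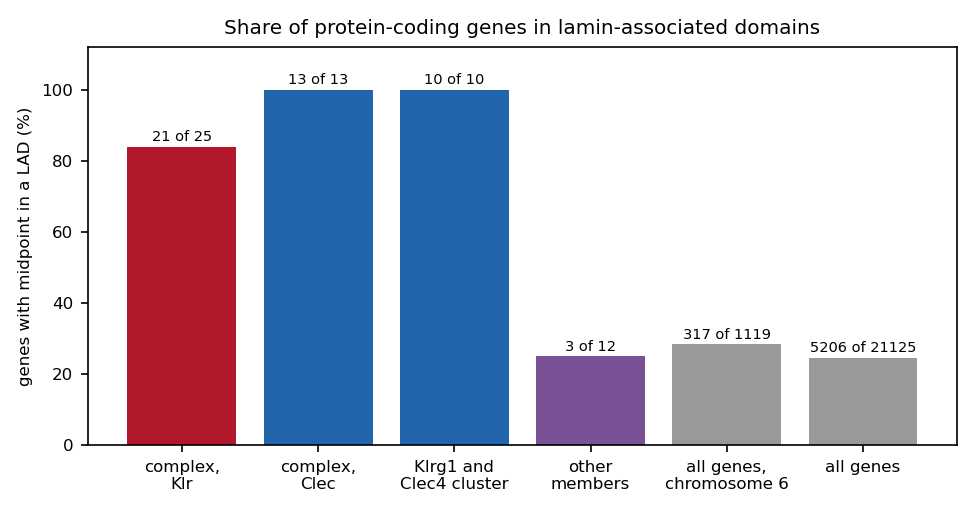
Percentage of protein-coding genes whose midpoint lies in a LAD, for the Klr and Clec genes of the natural killer complex, for Klrg1 with the Clec4 cluster, for the other members, for all genes of chromosome 6 and for all genes. The numbers above the bars are counts of genes; the members that lie in neither cluster (3 of 12) stand at the level of all genes (5206 of 21125).

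The natural killer complex ran from Klrb1a to Klra2 (chr6:128609227-131247716, mm10), a span of 2638 kb of which 91.3% was LAD. It was divided among 3 LADs, separated by 2 gaps of 135.0 and 95.0 kb. Across all chromosomes the median gap measured 240.0 kb, and 29.7% and 16.9% of the 1416 gaps were at most as long as these. The first LAD (chr6:128604241-128729239) measured 125 kb, shorter than the median LAD of 445.0 kb. The second (chr6:128864240-129509237) measured 645.0 kb, and the third (chr6:129604237-131276731) 1672 kb. They held 3, 16 and 23 protein-coding genes, or 24.0, 24.8 and 13.8 per Mb, whereas the median over all LADs was 1.73 genes per Mb. Members made up 3, 13 and 18 of these genes. The LADs were chosen because they hold the clustered members, so a high density follows from that choice.

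**Figure D2:**
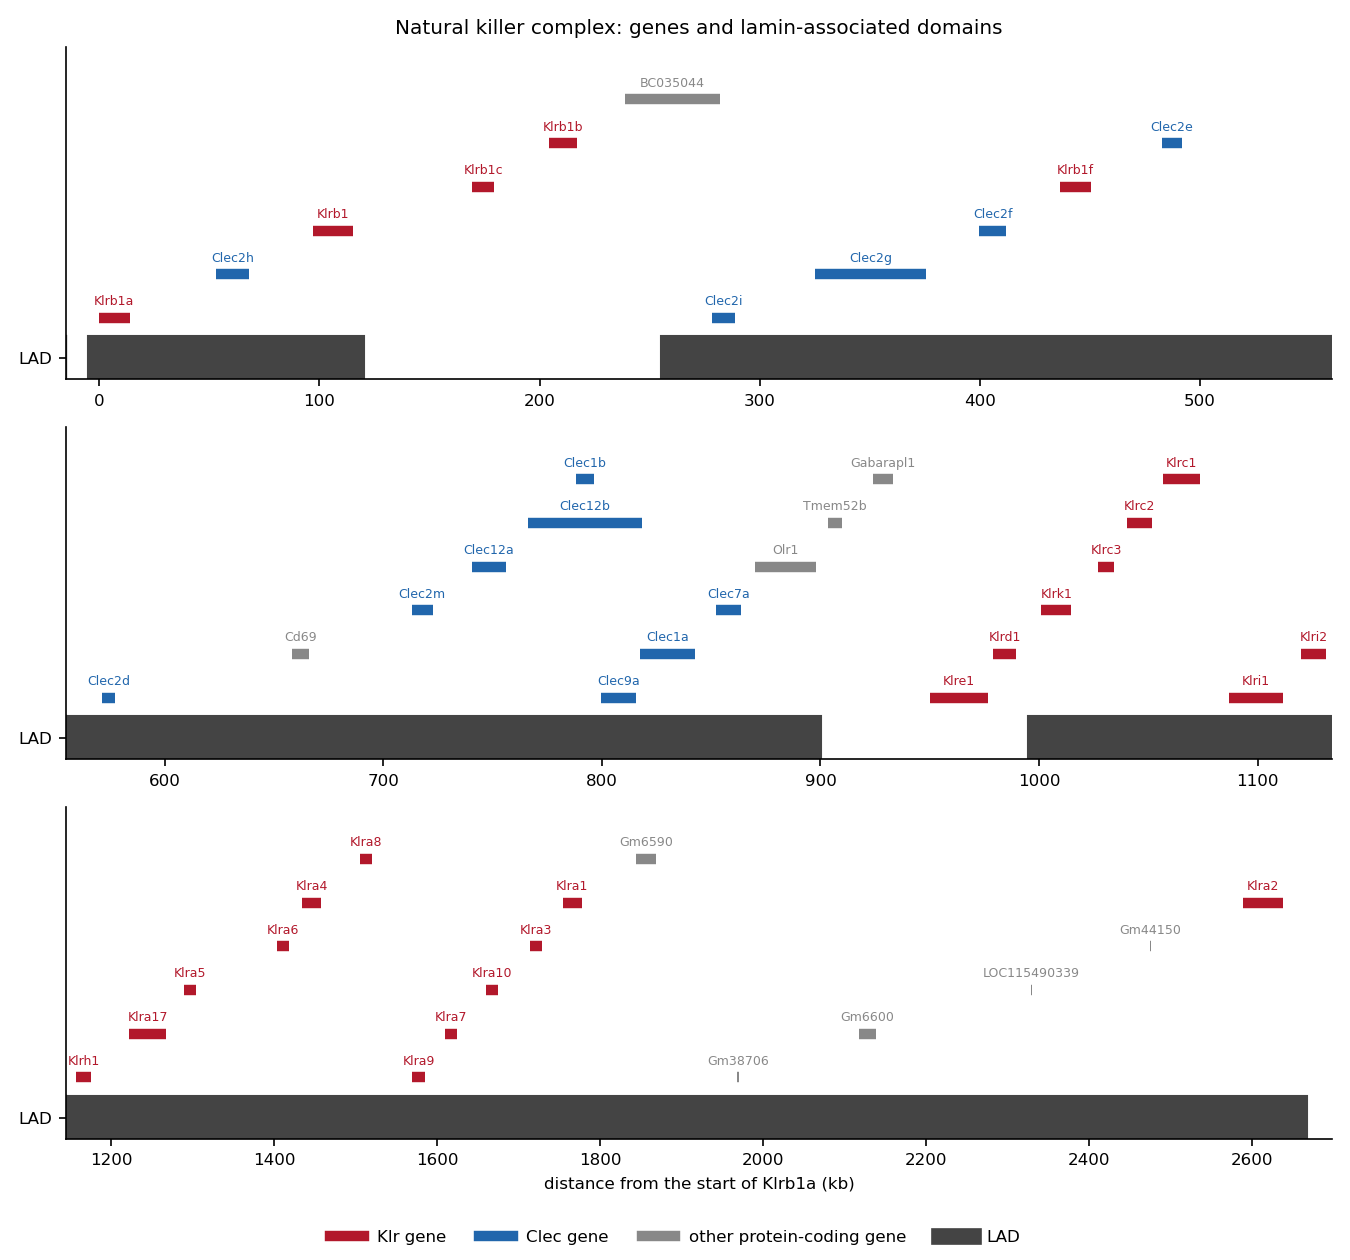
Map of the natural killer complex in 3 consecutive stretches, with distance from the start of Klrb1a in kb on the horizontal axis and the LADs as dark bars. Genes are drawn to scale and staggered in height for legibility only; the gaps hold Klrb1c and Klrb1b (135.0 kb gap) and Klre1 and Klrd1 (95.0 kb gap).

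Of protein-coding genes, the first LAD held members only: Klrb1a (chr6:128609227-128622934), Clec2h and Klrb1 (chr6:128706093-128724330). Klrb1a encodes an activating receptor of the Nkrp1 family, and Clec2h encodes one of the Clr proteins that serve as ligands of this family. Their midpoints were 11.8 kb (Klrb1a), 59.4 kb (Clec2h) and 14.03 kb (Klrb1) from the nearest border. Klrb1a and Klrb1 lie close to its edges, and Clec2h near the centre of this short domain.

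The gap after it contained 2 protein-coding genes, and both were members. Klrb1c (chr6:128778485-128788641) encodes the NK1.1 antigen by which natural killer cells of C57BL/6 mice are recognised, and its midpoint was 54.3 kb outside the nearest LAD. Klrb1b (chr6:128813706-128826315) encodes an inhibitory receptor of the same family and was 44.2 kb outside. The 5 Klrb genes of the complex were thus divided, with the borders as deposited. Klrb1a, Klrb1 and Klrb1f were inside LADs, and Klrb1c and Klrb1b lay between them. Klrb1a and Klrb1 were outside with LADs of at least 500 kb and with LADs shortened by 25 kb. Klrb1c and Klrb1b were inside with LADs within 250 kb joined. The 7 Clec2 genes of the complex were all inside: Clec2h in the first LAD, and Clec2i, Clec2g, Clec2f, Clec2e, Clec2d and Clec2m in the second. Clec2l, far from the complex on the same chromosome, was outside. With the borders as deposited, Clec2d, the ligand of the Klrb1b receptor, was the member deepest in the second LAD, 319.3 kb from its border. The gene of its receptor then lay in the gap. Klrb1f and Clec2i, also a receptor with its ligand, shared the second LAD at 188.5 and 28.6 kb from the border.

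The second LAD ran from Clec2i (chr6:128887587-128898168) to Clec7a (chr6:129461591-129472785) and held 13 members. Besides Klrb1f and the Clec2 genes these were Clec12a and Clec12b, inhibitory receptors, Clec1b, the receptor for podoplanin on platelets, Clec9a, by which dendritic cells sense dead cells, Clec1a and Clec7a, the beta-glucan receptor Dectin-1. These 6 genes were at 42.0 kb (Clec7a) to 151.7 kb (Clec12a) from the border, and Clec12b and Clec1b were nearly level at 107.7 and 107.9 kb. Clec1b and Clec9a lie within the interval of Clec12b, so their positions are not separate observations. The other protein-coding genes of this LAD were Cd69, an early activation marker of lymphocytes, at 237.9 kb, Olr1, a receptor for oxidised lipoprotein, at 15.99 kb, and BC035044, whose interval crosses the border.

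The second gap held Klre1 (chr6:129559365-129585828), whose midpoint was 31.6 kb from the nearest LAD, and Klrd1 (chr6:129588092-129598775), at 10.8 kb. Its other protein-coding genes were Tmem52b and Gabarapl1, an autophagy gene of wide expression. Klrd1 encodes CD94, the chain that pairs with each of the Nkg2 chains encoded by Klrc1, Klrc2 and Klrc3. Klre1 encodes the chain that pairs with Klri1 or Klri2. The 5 genes of the partner chains were all inside the third LAD, at 35.7 kb (Klrc3), 50.9 kb (Klrc2), 70.2 kb (Klrc1), 104.1 kb (Klri1) and 130.5 kb (Klri2) from its border. In both heterodimer families, then, the gene of the shared chain lay in the gap and those of the variable chains in the LAD beside it, with the borders as deposited. With every LAD lengthened by 25 kb at each end Klrd1 was inside and Klre1 was not, and with LADs within 250 kb of each other joined both were inside. These are 2 families in 1 stretch of chromatin, and no test of this arrangement was made.

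The third LAD held 18 members, from Klrk1 (chr6:129610323-129623903) to Klra2 (chr6:131198970-131247716). Klrk1 encodes NKG2D, an activating receptor for stress-induced ligands, and lay 12.9 kb inside the border. Klrh1 was at 171.2 kb. All 11 placed Klra genes were in this LAD, between 53.4 kb (Klra2) and 771.2 kb (Klra1) from a border, with a median of 518.3 kb. For all protein-coding genes inside LADs this median was 307.7 kb, above the 140.7 kb of the 34 complex members and the 150.8 kb of all 47 members inside. These medians depend on the borders as deposited. Over all 60 members, inside or outside, the median was 152.8 kb and became 805.0 kb with LADs within 250 kb joined. The value for all genes with joining is not given here. Klra8, the activating receptor that recognises cells infected with murine cytomegalovirus in C57BL/6 mice, stood at 518.3 kb, Klra4 at 451.3 kb, Klra3 at 726.2 kb and Klra7 at 621.7 kb. Klra2 is separated from Klra1 by 812.1 kb, whereas the median interval between neighbouring members of the complex was 25.1 kb. This long interval was also LAD throughout. The Klra genes are near-identical in places and differ in number between mouse strains. How reads from such copies were placed is not given in the sources used here, and its part in the domain calls was not tested.

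The genes of the complex that are no members were set against the same borders. Of 10 other protein-coding genes, 8 had their midpoint in a LAD, the exceptions being Tmem52b and Gabarapl1. Of 44 pseudogenes and non-coding genes, 40 were inside, against 39.3% of the 27307 such genes that lie between the first and the last LAD of their chromosome. LADs cover 91.3% of the span of the complex, so a share of this size is near what the span itself has. The 5 Klr and Clec pseudogenes of the complex (Clec2j, Klrb1-ps1, Klra11-ps, Klra14-ps and Klra13-ps) were all inside.

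The plot of border distances shows the order of all 60 members. Distances rose steadily from Klrk1 to Klra1 along the third LAD, and from Clec4a1 to Clec4e along the Clec4 domain, which follows from the order of genes in a domain entered from one side. Within 50 kb of a border, on either side, lay 13 of the 60 members (21.7%), against 8.05% of all protein-coding genes and 12.4% of those of chromosome 6. These shares mix genes inside and outside LADs, and most members were inside whereas most genes were outside. Among genes inside LADs alone, the counts were 9 of 47 members, 702 of 5206 of all genes and 65 of 317 of chromosome 6. The share of the members there was no higher than that of chromosome 6. In the complex, 9 genes lay within 50 kb of a border on either side: Klrb1a, Klrb1, Klrb1b, Clec2i, Clec7a, Klre1, Klrd1, Klrk1 and Klrc3.

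**Figure D3:**
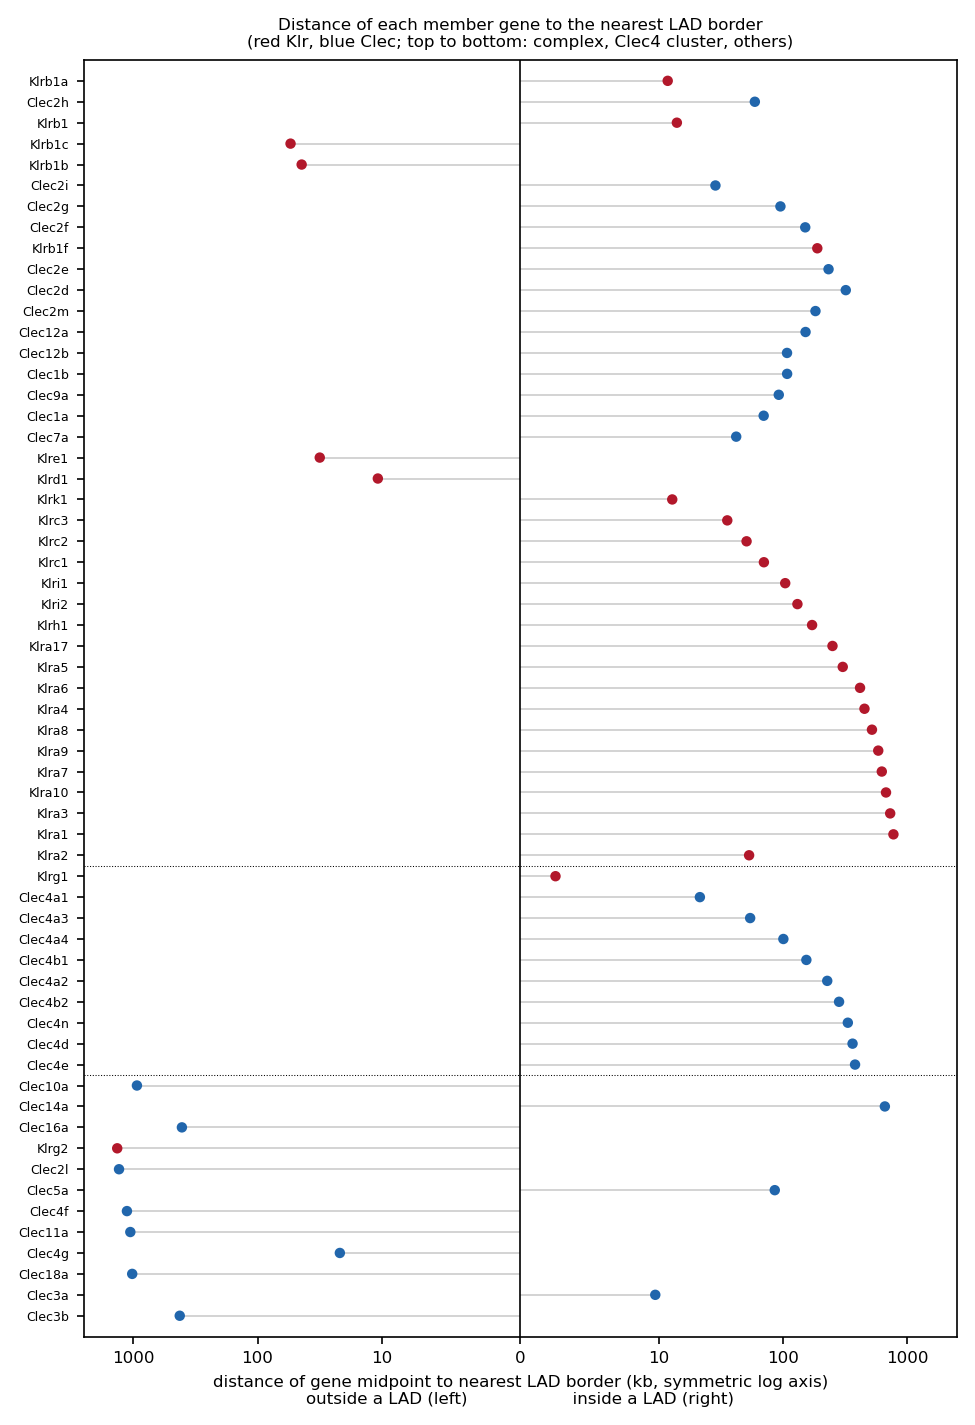
Distance of each member's midpoint to the nearest LAD border in kb on a symmetric logarithmic axis, outside a LAD to the left and inside to the right, with Klr genes in red and Clec genes in blue. Inside the complex Klrb1c, Klrb1b, Klre1 and Klrd1 stand to the left, at 10.8 to 54.3 kb, while 7 of the 9 members outside LADs in the lowest block lie at 422.0 to 1342 kb, with Clec16a at 405.5 kb and Clec4g at 21.8 kb.

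Klrg1 (chr6:122270596-122282833), an inhibitory receptor for cadherins, was the only member cut by a LAD border. The LAD (chr6:121379264-122279260) covered 8.67 kb of the gene and left 3.57 kb outside. Its midpoint was 2.55 kb inside, about the 2.5 kb step to which all domain lengths conform, so its side of the border is not resolved. Between Klrg1 and the Clec4 genes lay a stretch of 13 other protein-coding genes, among them Nanog and Slc2a3, of which 1, Rimklb, had its midpoint in a LAD, a domain of 72.5 kb.

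The 9 Clec4 genes formed an unbroken run, from Clec4a1 (chr6:122921848-122934619) to Clec4e (chr6:123281789-123289871), in 1 LAD (chr6:122906759-124349253) of 1442 kb. Clec4a1, Clec4a2, Clec4a3 and Clec4a4 encode the Dcir receptors of dendritic cells, and the 4 genes lay 21.5, 226.6, 54.4 and 100.6 kb from the border. Clec4n (Dectin-2) at 331.7 kb, Clec4d at 361.9 kb and Clec4e (Mincle, the receptor for mycobacterial cord factor) at 379.1 kb were the deepest, and Clec4b1 and Clec4b2 stood at 154.0 and 282.0 kb. The 368.0 kb from the first to the last Clec4 gene was covered to 100%. The rest of the LAD held 10 protein-coding genes, 9 vomeronasal receptors (Vmn2r19 to Vmn2r27) and Cd163, a scavenger receptor of macrophages. The Clec4 receptor genes thus shared a domain with receptor genes of the nose.

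**Figure D4:**
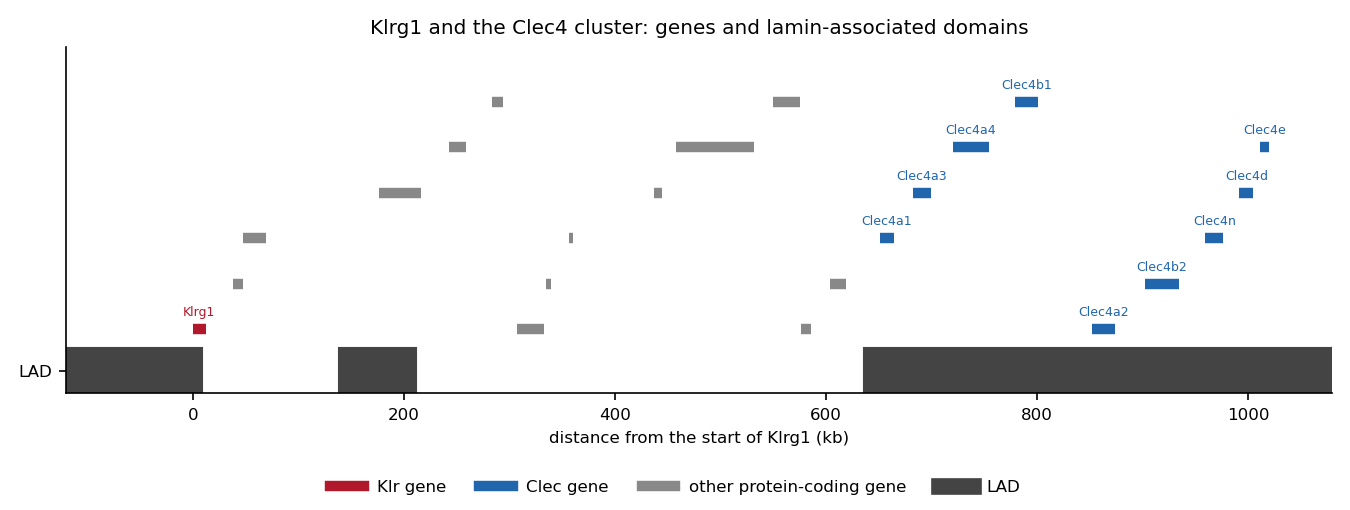
Map of Klrg1 and the Clec4 cluster with distance from the start of Klrg1 in kb on the horizontal axis and LADs as dark bars; genes are staggered in height for legibility only, and only members are named. The border crosses Klrg1, and the 9 Clec4 genes lie together in the LAD at the right, which continues beyond the plot.

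The 12 members elsewhere were mostly far from LADs. Inside were Clec3a of cartilage, Clec14a of endothelium and Clec5a, a myeloid receptor that signals through an adaptor. Clec5a (chr6:40574898-40585805) lay 85.8 kb inside a LAD of 1017 kb that also holds trypsin genes and 2 olfactory receptor genes. Clec14a (chr12:58264720-58269258) was 658.1 kb inside a LAD of 1642 kb with Foxa1, Sstr1, Ttc6 and Mipol1. Clec3a (chr8:114418034-114428133) was 9.76 kb inside a LAD of 372.5 kb.

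Of the 9 members outside, Klrg2 (1342 kb from the nearest LAD) and Clec2l (1298 kb) shared a gap of 3190 kb on chromosome 6. Clec4f, a receptor of Kupffer cells, lay 1121 kb from a LAD in a gap of 10425 kb, longer than 99.3% of gaps or equal to them. Its symbol places it with the Clec4 genes, but its position is apart from the cluster. Clec11a, a secreted growth factor for bone and blood progenitors, was at 1053 kb, Clec18a at 1017 kb and Clec10a, a galactose receptor of macrophages, at 931.7 kb. Clec3b, which encodes the secreted protein tetranectin, was at 422.0 kb, and Clec16a, a gene of wide expression with a role in mitophagy, at 405.5 kb. Clec4g (chr8:3707066-3720695), a lectin of liver sinusoidal endothelium, was the exception, 21.8 kb before the first LAD of chromosome 8 (chr8:3735696-4163194). That LAD of 427.5 kb begins between Clec4g and Cd209a and held 7 protein-coding genes, the Cd209 lectins. The neighbouring lectin gene Fcer2a was outside, at 48.5 kb. For comparison, the median distance of all protein-coding genes outside LADs was 759.6 kb.

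Promoters of members were examined, and those at the gap borders are shown because neighbours there differ in their position. The RefSeq promoter table of GRCm38.p6 (250 bases before to 50 after a start site) had an entry for 50 of the 60 placed members, with Klrd1, Clec2f, Clec1a and Klri2 among those without one. For 7 members next to the 2 gaps, and for Clec16a as a member outside LADs with a promoter rich in CG dinucleotides, the 250 bases before the start site are shown 5′ to 3′ on the strand of the gene. Capitals mark CG dinucleotides. Klrb1 (chr6:128723098-128723347, minus strand) lies in the first LAD, Klrb1c (chr6:128788642-128788891, minus strand) and Klrb1b (chr6:128826316-128826565, minus strand) in the first gap, and Clec2i (chr6:128887337-128887586, plus strand) and Clec7a (chr6:129472780-129473029, minus strand) at both ends of the second LAD. Klre1 (chr6:129577963-129578212, plus strand), here at a start site inside the gene interval, lies in the second gap, and Klrk1 (chr6:129623865-129624114, minus strand) in the third LAD. Clec16a is at chr16:10545089-10545338, plus strand.
Klrb1: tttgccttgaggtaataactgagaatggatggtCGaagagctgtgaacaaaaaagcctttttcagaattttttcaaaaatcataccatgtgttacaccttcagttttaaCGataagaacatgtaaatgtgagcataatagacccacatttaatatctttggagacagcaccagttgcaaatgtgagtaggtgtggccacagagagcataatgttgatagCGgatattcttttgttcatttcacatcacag
Klrb1c: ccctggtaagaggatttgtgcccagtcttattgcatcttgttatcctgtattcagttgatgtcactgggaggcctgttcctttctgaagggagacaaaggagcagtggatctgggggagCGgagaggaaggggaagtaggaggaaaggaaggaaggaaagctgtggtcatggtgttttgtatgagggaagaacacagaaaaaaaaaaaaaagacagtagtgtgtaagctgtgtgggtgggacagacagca
Klrb1b: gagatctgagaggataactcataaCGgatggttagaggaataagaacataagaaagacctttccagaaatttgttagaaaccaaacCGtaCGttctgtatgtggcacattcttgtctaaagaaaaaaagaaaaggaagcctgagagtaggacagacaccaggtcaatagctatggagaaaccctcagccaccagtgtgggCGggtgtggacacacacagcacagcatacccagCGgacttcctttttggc
Clec2i: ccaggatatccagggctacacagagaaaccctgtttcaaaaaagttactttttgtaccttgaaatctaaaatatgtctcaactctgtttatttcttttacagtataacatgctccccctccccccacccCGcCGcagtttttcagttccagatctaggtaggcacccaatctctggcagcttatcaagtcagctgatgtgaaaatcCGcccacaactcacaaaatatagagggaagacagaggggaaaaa
Clec7a: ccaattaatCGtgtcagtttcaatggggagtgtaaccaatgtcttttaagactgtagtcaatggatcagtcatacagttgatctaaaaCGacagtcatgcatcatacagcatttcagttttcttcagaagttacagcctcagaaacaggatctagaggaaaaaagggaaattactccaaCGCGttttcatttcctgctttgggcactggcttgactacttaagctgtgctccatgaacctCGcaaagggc
Klre1: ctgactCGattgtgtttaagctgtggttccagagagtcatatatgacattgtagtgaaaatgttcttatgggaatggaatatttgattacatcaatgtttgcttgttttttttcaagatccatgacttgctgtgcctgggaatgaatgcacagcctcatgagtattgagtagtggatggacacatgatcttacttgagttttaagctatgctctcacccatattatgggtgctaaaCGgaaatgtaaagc
Klrk1: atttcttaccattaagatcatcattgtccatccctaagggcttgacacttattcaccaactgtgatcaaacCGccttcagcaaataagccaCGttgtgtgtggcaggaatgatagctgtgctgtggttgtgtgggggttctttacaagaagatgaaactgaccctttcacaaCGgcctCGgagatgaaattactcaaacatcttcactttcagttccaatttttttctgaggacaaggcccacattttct
Clec16a: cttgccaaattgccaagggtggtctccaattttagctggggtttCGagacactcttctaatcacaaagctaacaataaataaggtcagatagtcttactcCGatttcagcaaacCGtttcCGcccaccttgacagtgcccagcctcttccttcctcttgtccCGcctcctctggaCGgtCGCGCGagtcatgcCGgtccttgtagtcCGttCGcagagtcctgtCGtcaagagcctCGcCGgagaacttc

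Within these 250 bases the CG count was 3 for Klrb1, 1 for Klrb1c, 5 for Klrb1b, 3 for Clec2i, 5 for Clec7a, 2 for Klre1 and 4 for Klrk1. The gap promoters (1 to 5) and those of the adjacent LADs (3 to 5) overlapped. Clec16a had 15.

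Over the full 300 bases, the 34 promoters of the complex had a median of 2.5 CG dinucleotides and none had 10 or more. The 3 with a start site in a gap had 7 (Klrb1b), 2 (Klre1) and 1 (Klrb1c), and the 31 in LADs had 0 to 7 with a median of 3. The 7 promoters of the Clec4 cluster had 0 to 6. Among all 16984 promoters of protein-coding genes the median was 13 and 56.7% had 10 or more. It was 2 for the 4181 with a start site in a LAD and 17 for the 12803 outside. Outside both clusters, Clec2l had 29, Clec16a 25 and Klrg2 12, but Clec18a had 5, Clec11a and Clec4g 4 each and Clec4f 0. A promoter poor in CG dinucleotides was thus present in members on either side of the borders.

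**Figure D5:**
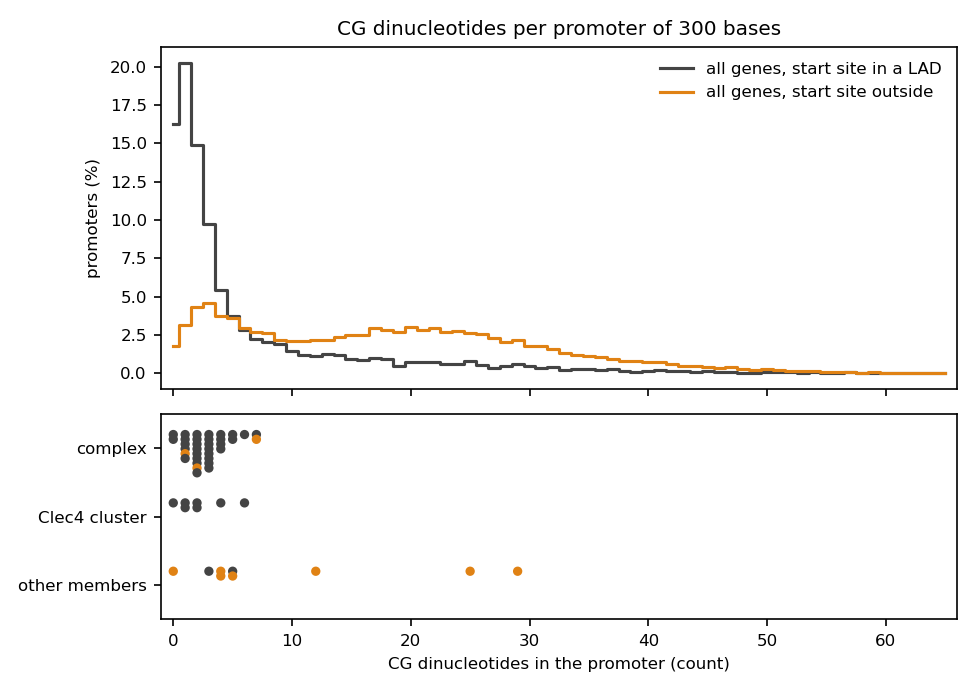
Upper panel, percentage of promoters of protein-coding genes against the count of CG dinucleotides in 300 bases, for start sites inside (dark) and outside LADs (orange). Lower panel, each member's promoter with the same colours and axis; the members of the complex lie between 0 and 7 on both sides of the borders, and Klrg2, Clec16a and Clec2l are the only members at 10 or more.

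The GC share of the promoters was 40.0% (median) in the complex, 54.0% in the members outside both clusters, 56.3% over all promoters and 44.7% over those with a start site in a LAD. The letters TATAAA, on either strand and anywhere in the 300 bases, were present in 14 of 34 promoters of the complex (41.2%), against 13.5% of all promoters and 25.6% of those in LADs. Among them were 7 of 11 Klra promoters. The Klra genes are near-identical in places, so their promoters may not be separate observations, here and for the motifs below. TGTGGT, the core that Runx factors bind, was in 9 of 34 (26.5%), in 4 of 7 Clec4 promoters (57.1%) and in 1 of 9 of the members outside both clusters (11.1%), against 15.2% of all promoters. Among start sites in LADs it was in 22.6% of the complex promoters and 19.8% of all. In the complex, Klrb1c and Klre1 of the gaps had it, as did Klrk1, Klrc1, Klrc2, Klrc3, Klrb1a, Clec12a and Klra1. GAGGAA, a core of the type bound by PU.1, was in 5 of 7 Clec4 promoters (71.4%), in 7 of 9 of the members outside both clusters (77.8%) and in 16 of 34 of the complex (47.1%), 8 of them among the 11 Klra promoters (72.7%), against 27.6% of all and 29.1% of those in LADs. The 3 motifs were searched on both strands and do not contain one another. A match describes letters in the window and is no evidence of binding.

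Genes that work with these receptors were placed in the same way. Of 47 other genes with a C-type lectin-like fold, 19 (40.4%) were in LADs, against 24.6% of all genes. They came mostly from clusters: Reg1, Reg2, Reg3a, Reg3b, Reg3d and Reg3g, secreted lectins of gut and pancreas, lay 1588 to 1683 kb inside 1 LAD, the 7 Cd209 genes shared another, and Mbl1, Sftpa1 and Sftpd, soluble collagen-like lectins, lay together on chromosome 14. Chodl was a single gene inside. The remaining 2, Cd69 and Olr1, are the genes of the natural killer complex described above, so they are not separate from it. Related lectins were outside: Mbl2 at 17.2 kb, Colec10 at 4433 kb, Colec11 at 113.7 kb and Reg4 at 341.4 kb from the nearest LAD. The endothelial lectins Sele and Selp, the mannose receptors (Mrc1 and Mrc2) and the proteoglycans Acan, Bcan, Ncan and Vcan were outside.

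Of 11 matched ligands of killer cell receptors, 2 (18.2%) were inside, against 24.6% of all genes. These were H60c and Ulbp1, both ligands of NKG2D. The NKG2D ligands Raet1d, Raet1e and H60b were outside, as were the class I genes H2-K1, H2-D1 and H2-T23, the podoplanin gene Pdpn and the cadherin gene Cdh1. None of the 13 adaptors and kinases that carry the receptors' signals was in a LAD, against the same 24.6%, among them Tyrobp, Hcst, Syk and Card9. The median distance to a border was 806.8 kb, and Vav1 was the nearest at 44.7 kb. Of 17 genes listed as other natural killer or related immune receptors, 10 (58.8%) were inside, against 24.6% of all genes. They included Ncr1, Cd244a, Slamf6, Slamf7, Kir3dl1 and Kir3dl2. Cd244a, Slamf7 and Slamf6 lie near each other on chromosome 1, and Lilr4b and Lilrb4a on chromosome 10. The interval of Kir3dl1 lies within that of Kir3dl2, so the 10 are not separate placements. Tigit, Cd160, Fcgr3 and Il2rb were outside, and Cd96 was crossed by a border with its midpoint outside.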

How the data were processed

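CUT&RUN was performed with antibodies to Lamin B1, H3K9me2, H3K14ac and IgG, in 7 libraries. The values the authors deposited are start and end positions in bp of 1437 LADs, with a score of 0 in each deposited line. Bowtie2 and build mm10 are named in the submitters' processing notes. The domain caller, its threshold, the merging and the use of IgG or spike-in are not given in the sources used here. Read depth is unknown, and no single library was analysed here. All LAD lengths (100%) lie within 125 bp of a multiple of 2.5 kb.

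Gene positions came from the RefSeq table of GRCm38.p6, counted from 1. Rows where positions start anew (separate sequences, 113 protein-coding genes) were left out. The background holds 21125 genes with their midpoint between the first and last LAD of a chromosome. Clec4g lies before the first LAD and is counted among the members only. For placement by start site, the start was the outer end of the gene interval on the strand given by the promoter table. Both gene ends were used for the 10 placed members without an entry. The promoter features used the start site of the promoter entry itself. This can differ, as for Clec12b (129385503 in the promoter entry, 129427634 from the interval). Where a gene had several entries the first was used. A gene was in a LAD if its midpoint was. Every member may be named, with coordinates for those at the ends of runs, cut by a border or near one. Related genes were matched by symbol or synonym, and Raet1a, Raet1b, Raet1c, H60a, Pira6 and Lilrb4b were not matched. Counts were made with pandas 2.3.3 and numpy 2.4.6 under Python 3.11.15, and the interval functions were tested on simulated data. Members and lists were chosen with earlier results of these data known. No test was used. The planned protein comparison was not made, since no protein sequences were used here.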

Additional observations from a re-analysis of the deposited data

How the results depend on the processing

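Over 8 alternatives, 41 to 51 of the 60 members were in LADs, against 47 by midpoint. The counts for the complex (31 to 38 of 38), the members outside it (10 to 14 of 22), Klr (18 to 26 of 27) and Clec genes (23 to 26 of 33) stayed within 1.5 times their values. For the complex, the Klr and the Clec genes most were already inside by midpoint, so a rise beyond this bound was not possible. Klrb1c, Klrb1b, Klre1 and Klrd1 are inside once LADs within 250 kb are joined, and Klrd1 and Clec4g once LADs are lengthened. Klrb1a, Klrb1, Klrk1, Klrg1, Clec4a1 and Clec3a are outside once LADs are shortened. Klrb1a, Clec2h, Klrb1 and Clec3a are outside with LADs of at least 500 kb.

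The LAD-covered share of the complex, 91.3%, became 86.7% with LADs of at least 500 kb, 100% with joining at 250 kb, and 86.7% or 95.1% with LADs shortened or lengthened by 25 kb, by construction. The median distance of members to a border, 152.8 kb, became 178.7 kb from the start sites of 50 members and 805.0 kb with joining, which removes borders. No paired analysis was possible because only 1 merged list was used, which also kept single Lamin B1 libraries from being left out.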
